A study of Mus musculus with 8 samples.

Results

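The circadian clock genes described here are Per1, Per2, Per3, Cry1, Cry2, Arntl, Clock, Nr1d1, Nr1d2 and Dbp. They were taken by symbol, and all 10 were found among the 47643 named genes of the deposited expression table. All 10 also passed the filter on low counts that left 15327 genes for testing. The values were measured in bone marrow mesenchymal stem cells (MSCs) of mice labelled C57BL/6 (C57BL6/J for the floxed line in the methods), flushed from tibiae and femurs and grown in culture, with no sort or gate described. RNA-seq compared cells of Mettl3fl/fl mice, which the sample labels call wild type (2 libraries, here the control libraries), with cells of Prx1-Cre;Mettl3fl/fl littermates (2 libraries, here the cKO libraries). MeRIP-Seq, in which RNA fragments that carry N6-methyladenosine (m6A) are recovered with an antibody, used 2 immunoprecipitates and 2 inputs of cells labelled wild type.

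Mettl3 is the catalytic subunit of the m6A methyltransferase complex. Prx1-Cre is active in limb bud mesenchyme and the cells derived from it, so that only cells of that lineage lose the floxed exons 2 and 3 of Mettl3. Every sample had spent 2 days in osteogenic medium. That medium held the synthetic glucocorticoid dexamethasone (100 nM) beside β-glycerophosphate (5 mM) and ascorbic acid (50 μg/ml). The age of the mice, the hour at which cells were harvested and the time since the last change of medium are not given in the sources used here. Nothing in the labels says that the 2 libraries of a group came from separate animals or cultures, so p-values measure the spread between these libraries, which may be technical.

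The molecular clock is a feedback loop of transcription that runs in nearly every cell type, bone cells included. CLOCK and BMAL1 (the product of Arntl) form a heterodimer that binds E-box sequences and switches on Per and Cry genes, whose products enter the nucleus and repress that same heterodimer. In a second loop the heterodimer switches on Nr1d1 and Nr1d2, which encode the heme-binding repressors REV-ERBα and REV-ERBβ, and these repress Arntl at sites shared with the ROR activators. DBP, another direct E-box target, binds D-box sequences, among others in Per genes, and its mRNA is known for a very large daily swing. Glucocorticoids are a known resetting signal of peripheral clocks and induce Per1 directly.

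Promoter windows of these genes were searched for the elements of the loop, and the matches are shown here because these are the elements through which clock proteins are known to act. RefSeq promoter windows on GRCm38.p6, from 250 bases before to 50 bases after a start site, matched 9 of the 10 genes, all but Per2, with 13 windows. Searched on both strands were the E-box (CACGTG), its variant the E-prime box (CACGTT, read as AACGTG on the other strand), the D-box (TTANGTAA), the core of the ROR element (TAGGTCA or TGGGTCA) and the cyclic AMP response element (TGACGTCA). The lines give 30 bases in the direction of transcription, with the matching letters in capitals.
Per1, E-box 166 bases before an inner start site, chr11:69098771-69098800 (plus strand): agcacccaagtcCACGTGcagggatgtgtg
Cry1, E-box 60 bases before the start, chr10:85185097-85185126 (minus strand): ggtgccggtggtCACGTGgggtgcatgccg
Cry1, E-prime box 79 bases before the start, chr10:85185116-85185145 (minus strand): acacacttcagaAACGTGaggtgccggtgg
Cry2, E-prime box 166 bases before the start, chr2:92434218-92434247 (minus strand): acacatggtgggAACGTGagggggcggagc
Nr1d1, E-prime box 28 bases before the start, chr11:98775388-98775417 (minus strand): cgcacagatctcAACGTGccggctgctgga
Per3, D-box 205 bases before the start, chr4:151044852-151044881 (minus strand): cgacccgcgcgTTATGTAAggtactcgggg
Per3, D-box 158 bases before the start, chr4:151044805-151044834 (minus strand): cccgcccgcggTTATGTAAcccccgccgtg
Arntl, ROR element core 30 bases after the start, chr7:113207530-113207559 (plus strand): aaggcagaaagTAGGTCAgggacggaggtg
Among all 32851 windows of the same length, 7.15% held the E-box, 4.68% the E-prime box, 2.32% the D-box, 6.45% the ROR element core and 1.79% the cyclic AMP response element. No window of a clock gene held the cyclic AMP response element, and none of Clock, Nr1d2 or Dbp held any of the 5 motifs. These matches describe letters in a short window and say nothing of sites outside it.

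The 4 RNA-seq libraries held between 23978099 and 34106693 counts. The 2 cKO libraries were far more alike than the 2 control libraries, with a biological coefficient of variation of 1.90% against 12.0%, and the ratio of chi-square to its degrees of freedom was 1.82 against 32.6. The deletion itself could not be seen in these counts. Mettl3 stood at 17.6 and 16.9 CPM (counts per 1000000 counts, TMM-scaled) in the control libraries and at 17.5 and 16.3 CPM in the cKO libraries, with a log2 fold change of -0.03 (adjusted p = 0.824 by the quasi-likelihood test of edgeR, Benjamini-Hochberg). Those counts cover the whole gene, of which only exons 2 and 3 are removed, and Tox4 overlaps it on the opposite strand, so they check no label. Every direction given below rests on the labels.

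Of the 10 clock genes, 4 rose and 2 fell in the cKO libraries at an adjusted p under 0.05. Across all genes tested, 30.5% were called in either direction, 13.7% higher and 16.8% lower. The 4 that rose were Dbp, Per2, Nr1d1 and Nr1d2, and the 2 that fell were Cry2 and Per1. Cry2 was the only clock gene to change by at least 2-fold, a size that together with an unadjusted p under 0.05 was reached by 10.5% of all genes tested. CPM of the groups did not overlap for 9 of the 10, against 68.9% of all genes tested. Of the 9, 7 were higher in the cKO libraries and 2 lower, against 33.9% and 35% of all genes. The median log2 fold change was 0.20 over the 10 clock genes and 0.00 in size over all genes tested. As these are bulk cultures, fewer cells of a type and less RNA per cell cannot be told apart.

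**Figure D1:**
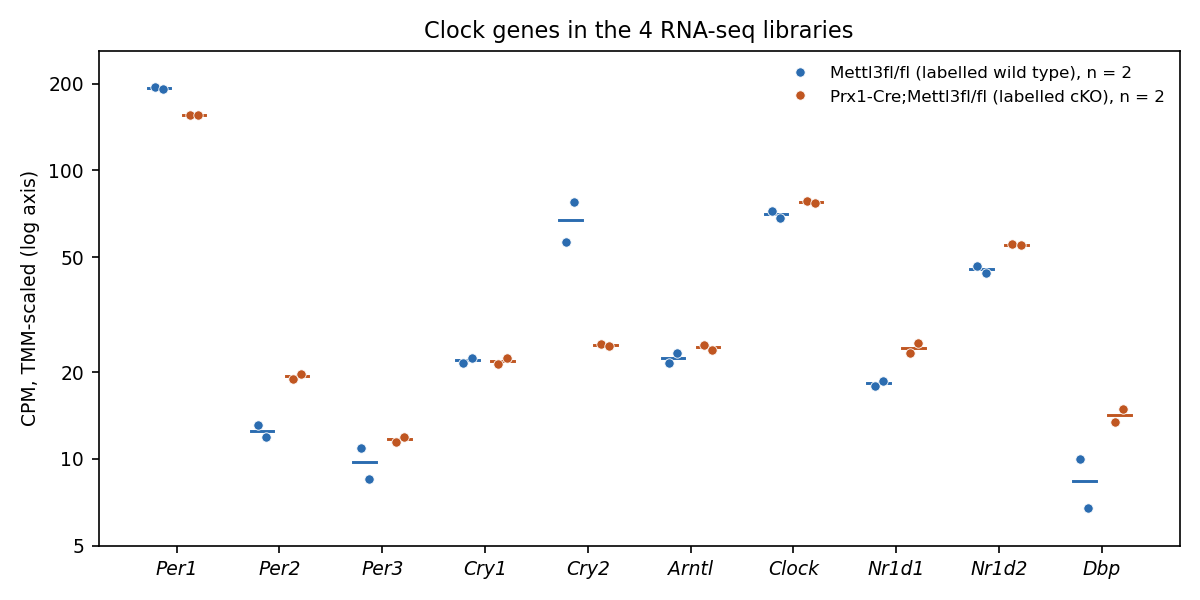
CPM (TMM-scaled, log axis) of the 10 clock genes, each point 1 library, with the 2 control libraries beside the 2 cKO libraries. Cry2 sits at 56.3 and 77.9 CPM in the control libraries and at 25.1 and 24.7 CPM in the cKO libraries, while Cry1 lies between 21.4 and 22.4 CPM in all 4.

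The cryptochromes are the strongest repressors of the CLOCK-BMAL1 heterodimer, and only Cry2 was called. Cry2 (ENSMUSG00000068742, GRCm38 chromosome 2, 92403646 to 92434043, minus strand) was read at 56.3 and 77.9 CPM in the control libraries and at 25.1 and 24.7 CPM in the cKO libraries. Both control libraries lay well above both cKO libraries, but they also differed from each other by more CPM than for any other clock gene. The group means were 67.1 ± 15.3 and 24.9 ± 0.283 CPM (SD, n = 2). Cry2 fell by 1.43 on the log2 scale (SE 0.153, 95% interval -1.80 to -1.06, adjusted p = 0.00119 in the edgeR test), a 2.69-fold lower level. It ranked 1031 of the 15327 genes by size of change. A noncoding gene on the opposite strand, D930015M05Rik, spans much of Cry2 but held only 7 to 20 counts per library, beside 608 to 2203 for Cry2.

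Cry1 (ENSMUSG00000020038, chromosome 10, 85131702 to 85185054, minus strand) was read at 21.5 and 22.4 CPM in the control libraries and at 21.4 and 22.3 CPM in the cKO libraries. The groups overlapped, and Cry1 was the only clock gene of which this was true. Its log2 fold change was -0.01 with a 95% interval of -0.21 to 0.20 (adjusted p = 0.963 in the edgeR test), which excludes a change of the size seen for Cry2. Their proportion moved with Cry2. On the deposited TPM values, which correct for transcript length, Cry2 stood at 2.14 and 2.70 times Cry1 in the control libraries and at 0.964 and 0.865 times Cry1 in the cKO libraries. By TPM the control ratios were both above 1 and the cKO ratios both below it. In CPM Cry2 stood at 2.62 and 3.47 times Cry1 in the control libraries and at 1.17 and 1.11 times in the cKO libraries. Whether Cry2 lay below Cry1 in the cKO libraries thus depends on the scale. The TPM ratio was chosen after the values were seen. Its exact permutation test (two-sided) gave p = 0.333, the smallest that 2 libraries against 2 allow. Both paralogs hold an E-prime box in the windows printed above, and only Cry1 also holds an E-box there.

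**Figure D2:**
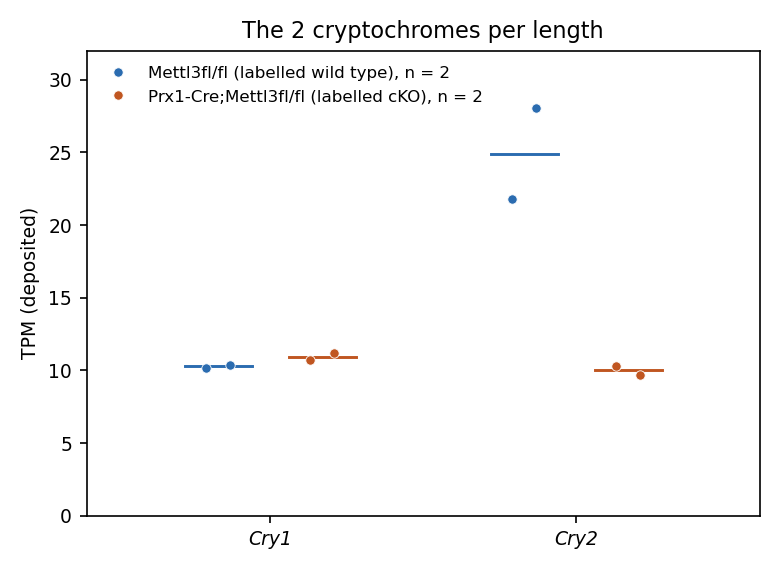
Deposited TPM of Cry1 and Cry2, each point 1 library, with the 2 control and the 2 cKO libraries side by side. Cry2 moves from 21.8 and 28.1 TPM to 10.3 and 9.69 TPM, while Cry1 stays between 10.2 and 11.2 TPM.

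The period genes encode the partners of the cryptochromes in the repressor complex, and of their 3 mRNAs Per1 fell, Per2 rose and Per3 was not called. Per1 (ENSMUSG00000020893, chromosome 11, 69095217 to 69109960, plus strand) was read at 195 and 192 CPM in the control libraries and at 156 and 155 CPM in the cKO libraries. Replicates agreed within a few CPM and the groups were clearly apart. Means were 193 ± 2.24 and 156 ± 0.579 CPM (SD, n = 2), and Per1 fell by 0.31 on the log2 scale (SE 0.0562, 95% interval -0.45 to -0.18, adjusted p = 0.00874 in the edgeR test), a 1.24-fold lower level. On the TPM scale the 2 cKO libraries stood further apart, at 67.5 and 82.1, below 91.8 and 94.8 in the control libraries, and Per1 missed the threshold there (adjusted p = 0.0878 with a pseudocount of 0.1, limma).

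Per2 (ENSMUSG00000055866, chromosome 1, 91415982 to 91459324, minus strand), the period gene whose protein is most often followed as a clock output, changed in the opposite direction. It was read at 13.1 and 11.9 CPM in the control libraries and at 19.0 and 19.6 CPM in the cKO libraries, with no overlap. Means were 12.5 ± 0.839 and 19.3 ± 0.464 CPM (SD, n = 2), and Per2 rose by 0.63 on the log2 scale (SE 0.098, 95% interval 0.39 to 0.87, adjusted p = 0.00511 in the edgeR test), a 1.55-fold higher level. Its TPM rose in step, from 3.04 and 2.72 to 4.68 and 4.87. On the TPM scale Per1 stood at 30.2 and 34.9 times Per2 in the control libraries and at 14.4 and 16.9 times in the cKO libraries. In CPM Per1 stood at 14.9 and 16.1 times Per2 in the control libraries and at 8.23 and 7.91 times in the cKO libraries. The listed lengths, 5631 nt for Per1 and 5856 nt for Per2, are too alike to make that difference between the scales. On both scales both control ratios lay above both cKO ratios. The TPM ratio, too, was chosen after its values were seen, and its exact permutation p of 0.333 is the smallest the design can give.

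Per3 (ENSMUSG00000028957, chromosome 4, 151003652 to 151044665, minus strand), the least required of the period genes for rhythms, was not called. It was read at 10.9 and 8.49 CPM in the control libraries and at 11.5 and 11.9 CPM in the cKO libraries. Its groups did not overlap, but the gap between them was smaller than the gap between the 2 control libraries. The log2 fold change was 0.26 (SE 0.145, 95% interval -0.09 to 0.61, adjusted p = 0.218 in the edgeR test). Without control library 1 it was 0.47 and passed the threshold (adjusted p = 0.000175), in a fit that called 55.8% of all genes tested. Without control library 2 it was 0.10 (adjusted p = 0.473). The whole Per3 entry lies inside the annotated span of Camta1, on the same strand, and Camta1 itself had a log2 fold change of 0.13 (adjusted p = 0.392, edgeR).

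The activators, Clock and Arntl, were not called in either direction. Arntl (ENSMUSG00000055116, chromosome 7, 113207465 to 113314122, plus strand), whose loss alone stops the clock, was read at 21.5 and 23.2 CPM in the control libraries and at 24.9 and 23.9 CPM in the cKO libraries. The cKO values were higher, but by less than 1 CPM at the nearest pair. Its log2 fold change was 0.12 (SE 0.0868, 95% interval -0.09 to 0.33, adjusted p = 0.326 in the edgeR test). It was 0.07 without control library 1 and 0.18 without control library 2. With limma on log2(TPM + 0.1) it was 0.22, in a fit whose median over all genes tested was 0.097. Clock (ENSMUSG00000029238, chromosome 5, 76209868 to 76304792, minus strand) was read at 72.3 and 68.6 CPM in the control libraries and at 78.3 and 76.8 CPM in the cKO libraries. These did not overlap either, and the log2 fold change was 0.14 (SE 0.0621, 95% interval -0.01 to 0.29, adjusted p = 0.144 in the edgeR test). It was 0.18 without control library 1 and 0.10 without control library 2. A pseudogene of Ube2n, Ube2n-ps1, lies within Clock on the same strand and was counted apart, at 27.6 to 31.9 CPM.

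Both REV-ERB genes rose. Nr1d1 (ENSMUSG00000020889, chromosome 11, 98767932 to 98775333, minus strand) was read at 17.9 and 18.6 CPM in the control libraries and at 23.2 and 25.3 CPM in the cKO libraries. Nr1d2 (ENSMUSG00000021775, chromosome 14, 18204054 to 18239127, minus strand) was read at 46.8 and 44.0 CPM in the control libraries and at 55.4 and 54.9 CPM in the cKO libraries. For both genes the 2 cKO libraries were above the 2 control libraries, by more than either pair differed. Nr1d1 rose by 0.41 on the log2 scale (SE 0.0898, 95% interval 0.20 to 0.63, adjusted p = 0.017 in the edgeR test), and Nr1d2 by 0.28 (SE 0.0671, 95% interval 0.12 to 0.44, adjusted p = 0.0233). In TPM, Nr1d1 stood at 0.612 and 0.686 times Nr1d2 in the control libraries and at 0.682 and 0.724 times in the cKO libraries. These ratios overlapped (exact permutation p = 0.667), in a design that cannot go below 0.333.

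Nr1d1 shares its 3′ end with Thra, the thyroid hormone receptor α gene on the opposite strand, over 1075 bases. Thra was read at 49.8 and 55.3 CPM in the control libraries and at 65.0 and 62.5 CPM in the cKO libraries, and it rose by 0.28 on the log2 scale (adjusted p = 0.0345, edgeR). Whether counting used strand is not given in the sources used here, so reads in the shared stretch cannot be assigned to 1 of the 2 genes, and the value of Nr1d1 is uncertain by that share.

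Dbp (ENSMUSG00000059824, chromosome 7, 45705247 to 45710203, plus strand), the D-box activator, had the largest rise. It was read at 10.0 and 6.76 CPM in the control libraries and at 13.5 and 14.9 CPM in the cKO libraries. The cKO libraries were higher without overlap, and the 2 control libraries were again the less alike pair. Means were 8.38 ± 2.29 and 14.2 ± 1.02 CPM (SD, n = 2), and Dbp rose by 0.75 on the log2 scale (SE 0.188, 95% interval 0.30 to 1.21, adjusted p = 0.0267 in the edgeR test), a 1.69-fold higher level. The size of the rise depended on the control library, at 1.08 without control library 1 and 0.51 without control library 2. On the TPM scale Dbp just missed the threshold (adjusted p = 0.051 with a pseudocount of 0.1, limma). Sphk2, a sphingosine kinase gene on the opposite strand, overlaps the 3′ end of Dbp by 741 bases and had a log2 fold change of 0.11 (adjusted p = 0.203, edgeR). Without strand, reads there cannot be told apart either.

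**Figure D3:**
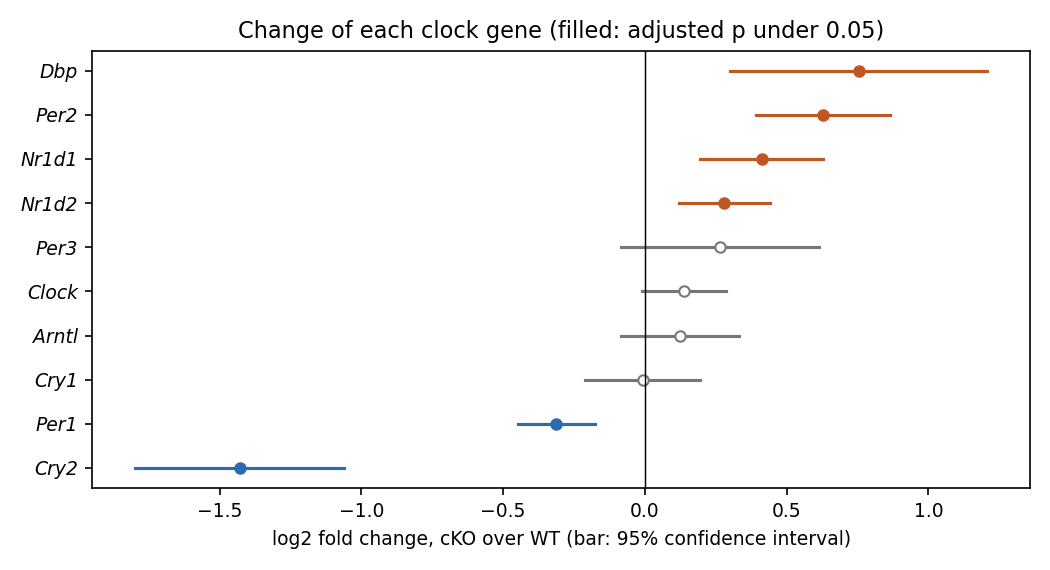
Log2 fold change of each clock gene, cKO over control, with its 95% confidence interval from the edgeR fit (2 libraries per group), filled points being those at an adjusted p under 0.05. Cry2 stands alone at -1.43, Per1 lies at -0.31, and the 4 filled points to the right of 0 run from 0.28 for Nr1d2 to 0.75 for Dbp.

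How firmly these calls stand differed between the genes. The call of Cry2 held in all 11 alternative fits, with a log2 fold change between -1.64 and -1.18 and an adjusted p of at most 0.00795. Per2 passed in 10 of the 11, the exception being the fit without cKO library 2 (adjusted p = 0.0535). The other 4 calls were lost more often. Without cKO library 2 the adjusted p was 0.218 for Nr1d1, 0.22 for Nr1d2, 0.11 for Dbp and 0.191 for Per1 in the edgeR test, and without cKO library 1 it was 0.0941 for Nr1d1, 0.242 for Nr1d2 and 0.182 for Per1. Those 2 fits take the spread from the 2 control libraries alone and assume it for the lone cKO library, and 11.8% and 12.0% of all genes tested were then called. With the 2 cKO libraries summed to 1 sample only Cry2 and Per2 were called, beside 12.5% of all genes. Other settings moved the count less. It was 6 without a filter on low counts, with median-of-ratios size factors and with a block on the replicate number, beside 25%, 30.4% and 31.8% of all genes. It was 5 with DESeq2 beside 22.5%, and 4 with limma on log2(TPM + 0.1) or log2(TPM + 1) beside 21% and 20.8%. Without control library 2 it stayed at 6, beside 50% of all genes. The fits without a control library, counted among the 11, took the spread from the 2 cKO libraries alone, the more alike pair. The sign of every clock gene but Cry1 was the same in all 11.

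Compared by TPM, the order of the clock genes shifted with Cry2. In the control libraries the mean TPM ran from Per1 (93.3) through Cry2 (24.9), Nr1d2 (14.9), Clock (12.3), Arntl (10.9), Cry1 (10.3), Nr1d1 (9.67) and Dbp (7.67) to Per2 (2.88) and Per3 (2.38). No 2 neighbours in that order overlapped between their libraries. In the cKO libraries Per1 stayed first at 74.8 TPM, followed by Nr1d2 (19.8), Clock (14.9), Nr1d1 (13.9), Dbp (13.9), Arntl (12.7), Cry1 (10.9), Cry2 (10.0), Per2 (4.78) and Per3 (2.96). There Nr1d1 and Dbp overlapped and the other neighbours did not. By TPM Cry2 thus went from second place to eighth, below its paralog, while Per1, Per2 and Per3 kept theirs. By CPM Cry2 stayed above Cry1 in the cKO libraries, at 1.17 and 1.11 times. Dbp stood at 0.874 and 0.542 times Arntl in the control libraries and at 1.01 and 1.17 times in the cKO libraries (exact permutation p = 0.333).

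Of 24 other genes of the clock, all tested, 4 rose, 9 fell and 11 were not called, with a median log2 fold change of -0.04. Across all genes tested, 13.7% were called higher and 16.8% lower. Of the 4 activators and paralogs 3 fell and 1 rose. Npas2, which can stand in for Clock, fell by 1.97 in log2 units (adjusted p = 0.00725, edgeR), from 3.28 and 4.88 CPM to 1.32 and 0.784 CPM. Rora, an activator at ROR elements, fell by 0.38 (adjusted p = 0.0066), from 56.6 and 55.3 CPM to 43.1 and 42.8 CPM, and Rorb fell by 1.67 from a level near 1 CPM (adjusted p = 0.0191). Arntl2, the paralog of Arntl, was the exception and rose by 1.03 (adjusted p = 0.0175), from 2.10 and 1.56 CPM to 3.76 and 3.77 CPM.

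Of 7 other repressors, 4 fell and 1 rose. Bhlhe40, which competes for E-boxes, fell by 2.29 in log2 units (adjusted p = 1.55e-05, edgeR), from 143 and 127 CPM to 27.7 and 27.8 CPM. Nfil3, the repressor that opposes DBP at D-boxes, fell by 2.31 (adjusted p = 5.89e-05), from 93.3 and 116 CPM to 21.5 and 20.8 CPM. In both genes every control library exceeded every cKO library by more than 4-fold. Their falls were larger than that of Cry2. Bhlhe41, the paralog of Bhlhe40, rose by 0.36 instead (adjusted p = 0.0108), while Timeless and Tipin, which also act at replication forks, fell by 0.43 and 0.58. Tef, which binds the same D-boxes as DBP, rose by 0.45 (adjusted p = 0.00757), from 88.6 and 77.6 CPM to 112 and 116 CPM. Among 7 kinases and phosphatases that act on clock proteins, Csnk1e rose by 0.49 (adjusted p = 0.00317), Csnk1a1 fell by 0.29 (adjusted p = 0.0122) and 5 were not called. Among 4 ubiquitin ligases and deubiquitinases, Usp2 fell by 1.52 (adjusted p = 0.00014) and 3 were not called.

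**Figure D4:**
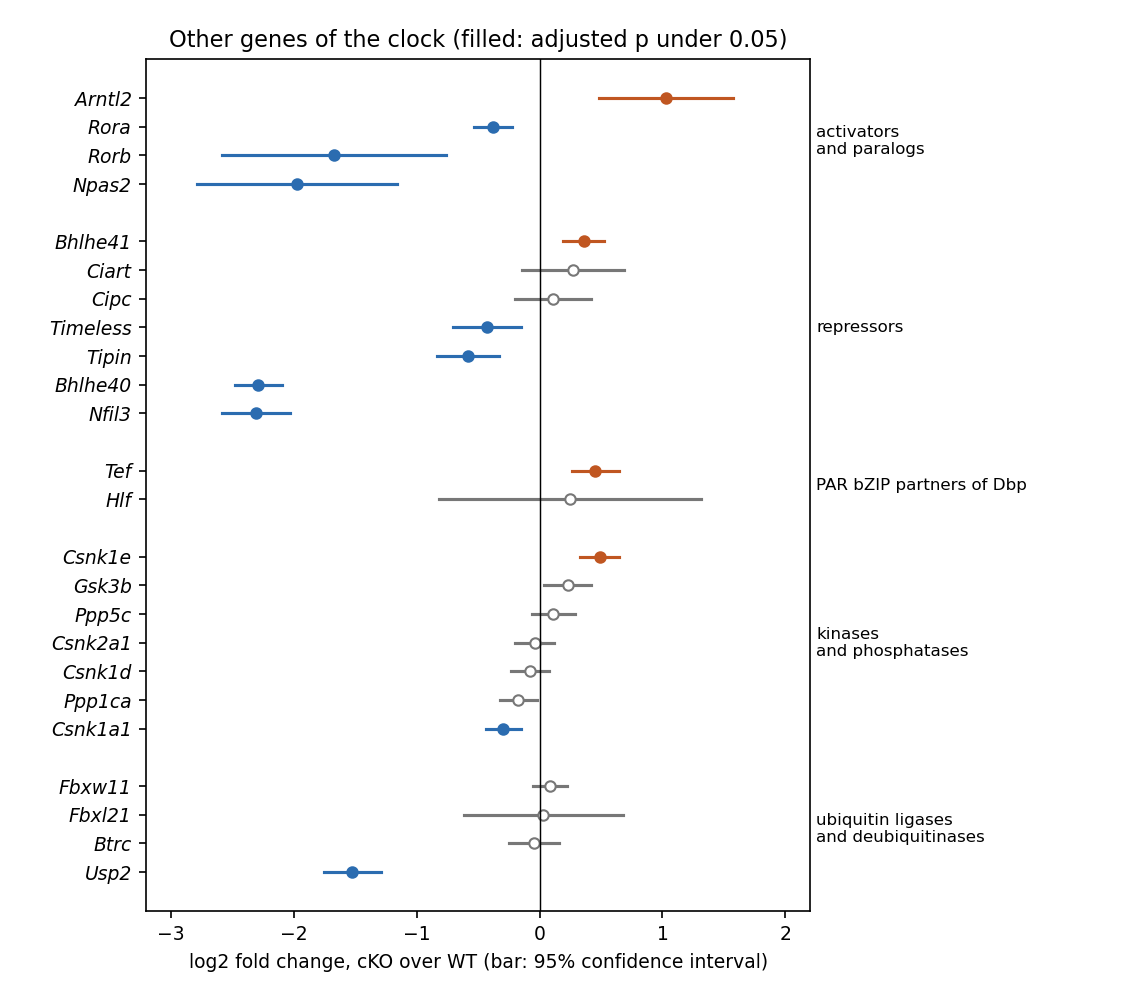
Log2 fold change, cKO over control, of the other clock genes by role, with 95% confidence intervals from the edgeR fit (2 libraries per group) and filled points at an adjusted p under 0.05. Nfil3 (-2.31), Bhlhe40 (-2.29) and Npas2 (-1.97) lie furthest to the left, and Arntl2 (1.03) furthest to the right.

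Since Per1 and several other clock genes answer to hormones and serum, lists of such targets were read beside them. Among all genes tested, 13.7% were called higher and 16.8% lower. Of 10 immediate early and cyclic AMP-responsive genes, 9 fell and 1 was not called, with a median log2 fold change of -2.11 and a summed level of 1136 and 1260 CPM in the control libraries against 188 and 189 CPM in the cKO libraries. Nr4a3, the furthest down of that list, fell by 8.66 in log2 units (adjusted p = 1.61e-06, edgeR), and Junb fell by 2.29 (adjusted p = 1.59e-05). Of 10 glucocorticoid-responsive genes, 2 rose and 5 fell, with a median of -0.25. Pdk4 rose by 0.61 (adjusted p = 0.00164, edgeR), Lcn2, which inflammation also induces, fell by 4.42 (adjusted p = 4.08e-06), and Fkbp5, the most abundant of the list, stood at 700 and 599 CPM in the control libraries and at 682 and 712 CPM in the cKO libraries (adjusted p = 0.41). The part of either response in the clock gene values was not tested.

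Marker mRNAs of several cell types also differed between the groups, and a clock gene could be read from any of the cells. In bulk RNA, a different make-up of the cultures and different expression within the same cells cannot be told apart. The marker counts stand beside the 13.7% of all genes tested that were called higher and the 16.8% called lower. Of 8 stromal markers 4 rose (Pdgfra, Pdgfrb, Prrx1 and Thy1) and 3 fell (Cxcl12, Col1a1 and Eng). Their summed level was 2572 to 2658 CPM in the control libraries and 2113 to 2151 CPM in the cKO libraries. Most of that sum was Col1a1, at 1896 and 1921 CPM against 1225 and 1259 CPM, so it does not follow the markers that rose. Lepr stood at 0.596 to 1.24 CPM in all 4 libraries. Of 6 macrophage markers 1 rose (Ptprc, by 0.42), and their sum was 14721 and 19211 CPM in the control libraries and 19712 and 19790 CPM in the cKO libraries, most of it Lyz2. Between the 2 control libraries the sum followed Lyz2, at 10984 CPM in library 1 and 15934 CPM in library 2. Csf1r (1332 and 1473 CPM) and Ptprc (191 and 200 CPM) were also higher in library 2, while Adgre1, Cd68 and Mrc1 were higher in library 1. The macrophage markers thus gave no single direction between these libraries. Library 1 held less Cry2 and more Dbp and Per3. All 6 osteoblast markers fell (median -1.30), all 4 chondrocyte markers fell (median -5.10, summed level 2871 to 2912 against 68.5 to 70.8 CPM), and all 6 adipocyte markers rose (median 0.78, summed level 612 to 629 against 1091 to 1114 CPM). Of 4 endothelial markers 2 rose, Kdr and Emcn, and with them the summed level, from 3.15 to 3.43 CPM to 14.2 to 16.5 CPM. The other 2 were low and went the other way. Cdh5 was not called (log2 fold change -1.16, adjusted p = 0.128, edgeR). Pecam1, at 0.266 and 0.248 CPM against 0.165 and 0.157 CPM, was not tested. Of 5 neutrophil markers only 1 had enough counts to be tested, and it fell, with S100a9 and Mpo at 0 in all 4 libraries. The listed spans of S100a9 (90695668 to 90695721) and Mpo (87804325 to 87804373) were shorter than their listed lengths of 519 and 2750 nt. Their 0 therefore cannot be read as absent mRNA. None of 4 erythroid markers could be tested. The part of these cells in the clock gene values was not tested.

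The genes whose pattern over the 4 libraries was most like that of the clock gene with the largest fall and the largest rise were looked up among genes with a mean of at least 5 CPM, by the Euclidean distance of their centred log2 CPM. Nearest to Cry2 were Pdgfrl (0.0641), Ccl2 (0.0751) and Vps37b (0.0946). Nearest to Dbp were Nkain1 (0.0794), Lysmd4 (0.0972) and Ms4a7 (0.104), the last of these a gene of macrophages. With 4 libraries, such a likeness rests on little more than the fold change and the split between the 2 control libraries.

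MeRIP-Seq of control cells placed a peak in 4 of the 10 clock mRNAs, Per1, Clock, Nr1d2 and Dbp, with 1 peak each. Of all tested genes in the annotation 40.1% held a peak, and of the 8145 genes in the expression range of the clock genes 49.4% did. None was listed in Per2, Per3, Cry1, Cry2, Arntl or Nr1d1, so that Cry2, the clock gene with the largest change, was without one. The 10160 peaks form 1 list for all MeRIP samples and carry no replicate error. Of the 6 called clock genes 3 held a peak, with Per1 falling and Nr1d2 and Dbp rising, and of the 4 not called Clock did. Among the 24 other clock genes 11 held a peak, including Bhlhe40, Nfil3 and Rora.

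m6A is laid down mostly within a short consensus of which GGAC is the core, with the A as the methylated base. All 4 peaks held GGAC on the transcript strand. How many of all peaks do was not counted, and so short a word can also occur by chance in peaks of 228 to 505 bases. The lines give the GGAC nearest the peak summit, in capitals, within 30 bases of the mature transcript (mm9). These are the bases on which a methylated A could lie.
Per1, across the junction into the last exon, chr11:68922009-68922607 (plus strand, intron left out): tgacggcgtgtgtGGACtgtggcagcagcg
Clock, last exon, chr5:76645751-76645780 (minus strand): cttcctcggcacaGGACtgacagcctgact
Nr1d2, coding exon, chr14:19047560-19047589 (minus strand): gcaacatctcagtGGACagtacaaagggag
Dbp, 5′UTR, chr7:52960763-52960792 (plus strand): taggagcctcccgGGACagtctttgagttg
The A of this GGAC lay 69 nt from the summit in Per1, 16 nt in Clock, 107 nt in Nr1d2 and 33 nt in Dbp.

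The summits of the Per1 and Clock peaks lay in the last exon near the stop codon, a stretch of mRNAs known to be rich in m6A. In Per1 (mm9 chromosome 11, 68922464 to 68922813) the summit fell in the coding part of exon 23 of 23, 196 nt before the last coding base. The peak also reached into the intron before that exon, where 2 of its 4 GGAC lay. It was a weak peak, with a fold enrichment of 2.50 that ranked 8979 of the 10160 peaks, a pileup of 47 fragments and a −log10 q-value of 5.39. In Clock (chromosome 5, 76645680 to 76645907) the summit was 54 nt before the last coding base, also in exon 23 of 23. Its fold enrichment of 3.09 ranked 7428 of all peaks, with a pileup of 60 and a −log10 q-value of 10.8. Both fold enrichments were below the median of 4.03 over all peaks.

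The other 2 peaks lay far from the stop codon and had fold enrichments close to the median. In Nr1d2 (chromosome 14, 19047507 to 19048011) the summit fell in coding exon 5 of 8, 884 nt before the last coding base, with a fold enrichment of 4.11, a pileup of 80 and a −log10 q-value of 21.9. In Dbp (chromosome 7, 52960594 to 52960845) it fell in the 5′UTR, in exon 1 of 4 and 249 nt before the start codon, with a fold enrichment of 4.03, a pileup of 83 and a −log10 q-value of 22.2. By q-value these were the strongest of the 4, ranking 2631 and 2567 of all peaks. They belong to genes that rose in the cKO libraries. With peaks limited to a −log10 q-value of at least 10, 3 of the 4 remained and Per1 was lost. Peaks were not measured in cKO cells, so loss of m6A from these mRNAs was not tested.

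**Figure D5:**
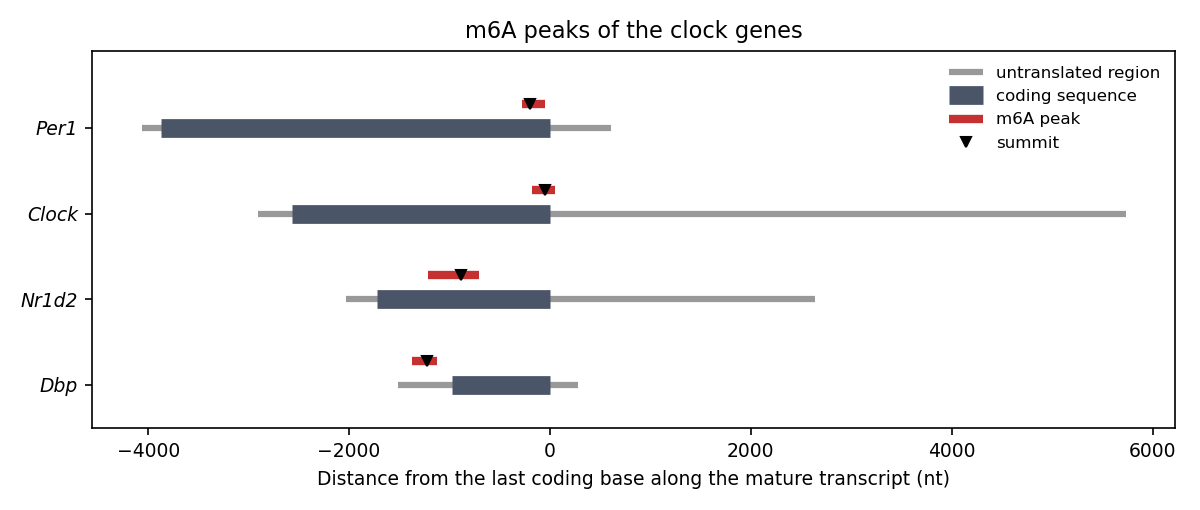
Mature transcripts of the 4 clock genes with an m6A peak, drawn to scale in nt from the last coding base (thick bar, coding sequence; thin bar, untranslated region; red bar, peak; triangle, summit). The summits of Per1 and Clock lie 196 and 54 nt before the last coding base, those of Nr1d2 and Dbp 884 and 1223 nt before it.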

How the data were processed

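Per the labels, RNA-seq libraries were made with the NEBNext Ultra kit. The authors checked reads with FastQC and FASTX and mapped them with HISAT2 2.0.4; the submitters' processing notes also name TopHat, MACS2 and the builds mm10 and mm9. The authors deposited estimated counts per gene, not normalized, and a normalized value headed FPKM that sums to 1000000 per library and was used as TPM. The deposited peak list, on mm9, gives pileup signal, fold enrichment as a ratio to local background and −log10 p- and q-values; whether samples were pooled is not given in the sources used here.

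Counts were rounded; the 89 of 47732 entries without a gene name, 0.110% to 0.125% of counts, were left out. Genes passing edgeR's filterByExpr were TMM-scaled (factors 0.987 to 1.01) and tested with edgeR 4.0.16 (glmQLFit, glmQLFTest, two-sided, no block, R 4.3.3), with Benjamini-Hochberg adjustment over 15327 genes. Standard errors were derived from each fold change (log2) and the F value of its test. Alternatives were a replicate block, no filter, DESeq2 1.42.0, median-of-ratios scaling, limma-trend (limma 3.58.1) on log2(TPM + 0.1) and log2(TPM + 1), each library left out, the cKO libraries summed, and stricter, overlapping or merged peaks. Peaks were placed by summit on GENCODE vM1. The scripts were tested on simulated data.

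Of the other clock genes, 2 are not reported here. The clock genes and all gene lists were chosen with earlier results of these data known. All 10 clock genes are named, as is every called gene among the other clock genes; from other lists the largest rise, the largest fall and the highest mean, or fewer; and genes that overlap a clock gene. Markers named beyond that, and the ratios between clock genes, were chosen after values were seen.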

Additional observations from a re-analysis of the deposited data

How the results depend on the processing

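Of the 10 clock genes, 6 were called in the edgeR fit, 4 higher and 2 lower, beside 30.5% of all genes tested. Leaving out 1 library at a time gave 1 to 8 calls, 0 to 6 of them higher and 1 to 2 lower; the 0 was the fit without cKO library 2, where 2 were higher at an unadjusted p under 0.05. With the cKO libraries summed to 1 sample 2 genes were called, 1 in each direction. The share of all genes called also differed between these fits, as given above. By unadjusted p under 0.05 and at least 2-fold change 1 was called, beside 10.5% of all genes. With limma on either TPM scale 4 genes were called, 3 higher and 1 lower. Per1 missed the threshold there, as did Dbp (adjusted p = 0.051 and 0.0516 in limma). DESeq2 called 5, without Nr1d2 (adjusted p = 0.0645), beside 22.5% of all genes. Without a filter and with median-of-ratios size factors 6 were called, beside 25% and 30.4% of all genes. With the replicate block 6 were also called, beside 31.8% of all genes. Deviations of same-numbered libraries correlated at 0.032 and the labels give the numbers no meaning, so the libraries were not treated as pairs. Cry1 changed sign, staying near 0. It was at 0.090 with limma on log2(TPM + 0.1) and at 0.083 on log2(TPM + 1). Over all genes tested the median log2 fold change in these fits was 0.097 and 0.078. Cry1 was at 0.0034 with the cKO libraries summed, and between -0.035 and 0.027 with 1 library left out. Without cKO library 1, 3 genes were called, and without cKO library 2 only Cry2. The lone library is there assumed to vary like the control libraries, and 2 libraries per group limit every call.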
